A study of Mus musculus with 12 samples.

Results

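The comparison described here sets the late phase of a response to interleukin-7 (IL-7) against its early phase: naive CD4+ T cells after 24 h of IL-7, on 2 arrays, against such cells after 6 h, also on 2 arrays. Its members are the probes with a detection p-value under 0.01 on at least 2 of these 4 arrays. They were 15259 of the 45281 probes on the array, 12785 of them with 1 gene symbol, and they cover 8078 genes. Each difference is given against both 6 h arrays and against 6 h replicate 2 alone, because transcripts of B cells and myeloid cells were present on 6 h replicate 1.

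The series holds 12 Illumina BeadChip arrays of RNA from CD4+ T cells of mouse spleen, the animals being 2 months old. In one experiment naive cells were given IL-7 for 24 h, for 6 h or not at all (0 h), with 2 arrays per time. In the other, naive cells were grown for 3 days as Th9 cells, helper cells that make interleukin-9, after 48 h of IL-7 or without it, with 3 arrays per group. The labels give every sample the strain B6.Cg-Tg(TcraTcrb)425Cbn/J, which carries a transgenic T cell receptor, whereas the design text names C57BL/6 mice. No culture without IL-7 was hybridised at 6 h or 24 h, so a change with IL-7 and a change with time in culture cannot be told apart. The labels do not say that replicates were separate animals or cultures, so the p-values measure the spread between these arrays, which may be technical. In whole-population RNA, fewer cells of a type and less RNA per cell cannot be told apart either.

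IL-7 binds a receptor made of the IL-7 receptor alpha chain (Il7r) and the common gamma chain, which signals through the kinases JAK1 and JAK3 to the transcription factor STAT5. Naive T cells depend on it for survival, in part through the anti-apoptotic gene Bcl2, and STAT5 also switches on inhibitors of its own pathway such as Cish and the Socs genes. Transcription factors of the AP-1 and NF-kB families belong to the early response of lymphocytes to many stimuli, and their transcripts are typically short-lived.

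Signals averaged 157.6 to 245.2 per array over the 6 naive arrays and 32.1% to 34.5% of probes were detected. On the log2 scale the 24 h arrays correlated at 0.99 and the 0 h arrays at 0.993, and the 6 h arrays at 0.969, and the standard deviation of the difference within a pair was 0.27, 0.23 and 0.48 in the same order. Of 15 B cell markers on the array, 14 were highest on 6 h replicate 1; their summed signals were 172.8 and 381.4 at 24 h, 11573 and 435.1 at 6 h (replicates 1 and 2), and 630.7 and 758.9 at 0 h, with the defining markers Ms4a1 and Pax5 not detected on any of these arrays. By deposited signal this array was also the highest for 16 of 22 markers of myeloid and dendritic cells, with sums of 2770.5 and 2032.8 at 24 h, 9830.7 and 2000.3 at 6 h, and 3157.5 and 2277.4 at 0 h. Xist, the transcript of the inactive X chromosome, had a signal of 692.4 on 6 h replicate 1 and was not detected on the other naive arrays. Of the Y-linked transcripts, Eif2s3y had 358.3 there and 818.8 to 1238.5 on the others. Kdm5d had 52.8 there and 156.2 to 347.4 on the others, and Uty was detected on neither 6 h array. Whether 6 h replicate 1 holds RNA of another animal was not tested. Of 8 markers of CD4 T cells, 7 were detected on every naive array and Cd5 on none. Of 2 markers of CD8 T cells, Cd8b1 was detected on every naive array and Cd8a on none. Cd8b1 had signals of 1063.1 to 1999 and Cd4 of 136 to 298.8. The part of CD8 T cells was not tested.

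With both 6 h arrays in the fit, the larger part of the changes called between 6 h and 24 h were falls. Against 6 h replicate 1 alone, rises outnumbered falls. Limma called 73 of 15259 probes (0.478%) at an adjusted p under 0.05: 18 rose (0.118%) and 55 fell (0.36%). At an unadjusted p under 0.05 there were 2655. The called falls had a median difference of -1.38 on the log2 scale and the called rises one of 1.15, against a median of 0.047 over all probes. With probes not detected at one time put at their bound, the lowest detected value, these medians were -1.33 and 1.07. They belong to 44 genes that fell and 16 that rose, and 3 of the probes that fell and 2 of those that rose carried no gene symbol. Of the 55 probes that fell, 16 were not detected at 24 h, and of the 18 that rose, 4 were not detected at 6 h. For each of the 73, both 24 h arrays lay on the same side of both 6 h arrays, as they did for 46.8% of all probes tested. Counted by gene, both 24 h arrays lay above both 6 h arrays for 27.4% and below them for 21.4%. The excess of falls thus held for the called probes and not for all genes.

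Against 6 h replicate 2 alone, 417 probes were called (2.73%), of which 190 rose (1.25%) and 227 fell (1.49%). This fit assumes that the lone 6 h array varies like the others, and leaves out the spread between the 6 h arrays. All 73 probes above were among the 417 with the same sign, their differences being 0.8 to 1.17 times those against both arrays. The count of 73 also rested on single arrays: leaving out either of the 24 h arrays left 1 call and either of the 0 h arrays 4, whereas 1766 probes were called against 6 h replicate 1 alone. Fosl2 was called whichever of the 6 arrays was left out, Gadd45b, Myl10 and Drc1 without 4 of them, and each of the other called probes without either of the 6 h arrays but not without any other array.

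**Figure D1:**
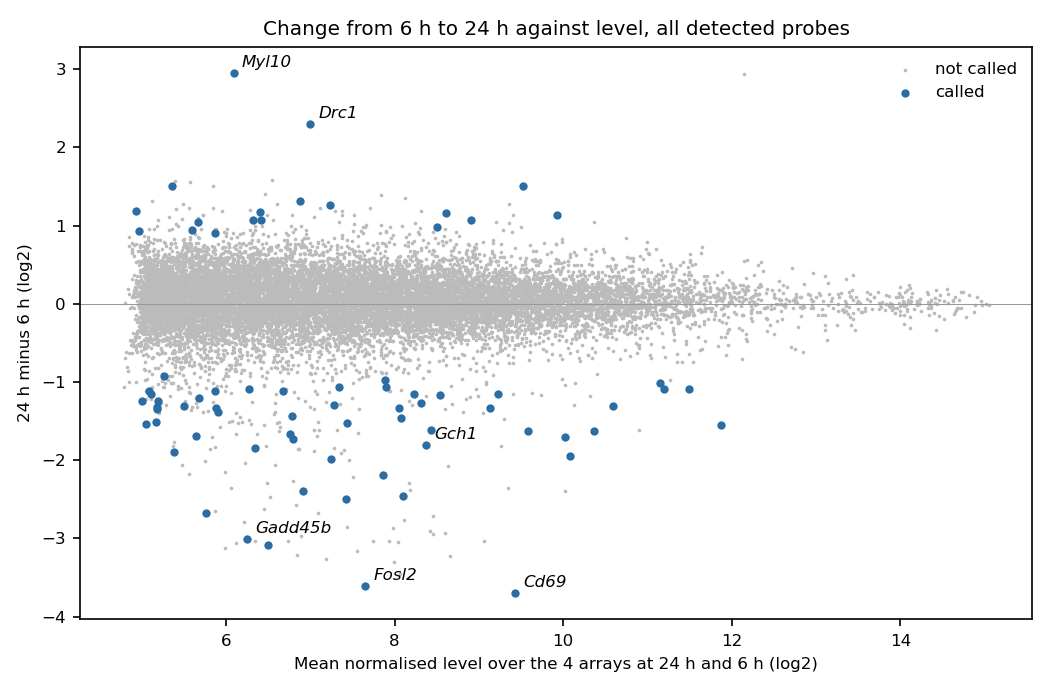
Difference at 24 h minus 6 h (log2, vertical axis) against the mean normalised level over the 4 arrays (log2, horizontal axis) for the 15259 probes tested, with the 73 called probes in blue. Myl10 and Drc1 stand highest among the called probes, at 2.95 and 2.30, and Cd69 and Fosl2 lowest, at -3.70 and -3.61.

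Several transcription factors were among the largest falls. Fosl2, which encodes a Fos-family subunit of AP-1, had normalised log2 levels of 5.74 and 5.94 at 24 h against 9.49 and 9.41 at 6 h. Its deposited signals were 46.0 and 39.6 at 24 h against 544.3 and 644.2 at 6 h. The groups were far apart, each pair agreed closely, and the 24 h level was near the 0 h mean of 5.89. Fosl2 thus fell 12.2-fold (log2 difference -3.61 ± 0.14, SE, n = 2 arrays per time, limma adjusted p = 0.00072), and the difference was -3.57 ± 0.17 (adjusted p = 0.00026) against 6 h replicate 2 alone.

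Crem, whose protein binds cyclic AMP response elements, was measured by 3 probes, all of which fell. The first had 6.68 and 7.05 at 24 h against 9.01 and 9.64 at 6 h, with 5.91 on average at 0 h. Here 6 h replicate 2 was the higher 6 h array, and the 24 h levels stayed above those at 0 h. The 3 probes differed by -2.46 ± 0.30, -2.19 ± 0.30 and -1.99 ± 0.28 (limma adjusted p = 0.033, 0.045 and 0.045), and by -2.78, -2.57 and -2.31 against 6 h replicate 2 alone.

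Irf4, a transcription factor of activated lymphocytes, had 4.83 and 5.09 at 24 h against 8.64 and 7.44 at 6 h. It was not detected at 24 h, and both 6 h arrays stood well above, replicate 1 more so. The level was at least 7.47-fold lower at 24 h (limma adjusted p = 0.033), or at least 4.91-fold lower (adjusted p = 0.0015) against 6 h replicate 2 alone. For such probes the bound puts the lowest detected value of each array in place of the undetected level. Myb, a transcription factor best known from blood progenitors, had 4.46 and 4.58 at 24 h against 5.86 and 5.81 at 6 h with its called probe, which was not detected at 24 h or 0 h, and was at least 1.62-fold lower. Its other 2 probes were lower without passing the test (adjusted p = 0.061 and 0.075). Mxd1, a partner of Max that opposes Myc, fell by 1.46 ± 0.20 on the log2 scale, and Casz1, a zinc finger factor, was at least 1.41-fold lower. Arid5a, an RNA-binding protein that stabilises inflammatory transcripts, fell by 1.27 ± 0.14.

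The NF-kB genes Relb, Rel and Bcl3 fell too. Relb, a subunit of the alternative NF-kB pathway, had 6.44 and 6.90 at 24 h against 8.22 and 8.19 at 6 h, and fell by 1.53 ± 0.19 (limma adjusted p = 0.034). Rel, the subunit c-Rel of lymphocytes, had 4.50 and 4.33 at 24 h, where it was not detected, against 6.01 and 5.83 at 6 h, and was at least 1.72-fold lower (adjusted p = 0.027). Bcl3, an atypical inhibitor protein that acts with NF-kB in the nucleus, had 5.34 and 5.09 at 24 h against 6.47 and 6.72 at 6 h and fell by 1.38 ± 0.16 (adjusted p = 0.033). For these 3 genes the 6 h arrays agreed closely and both stood above both 24 h arrays. Against 6 h replicate 2 alone Relb and Bcl3 stood at -1.52 and -1.51 (adjusted p = 0.017 and 0.0068) and Rel was at least 1.62-fold lower (adjusted p = 0.007). Traf6, an adaptor that leads from receptors to NF-kB, fell by 1.09 ± 0.15 with 1 of 3 probes, which was not the brightest; the smallest of the 3 differences was -0.22. Icam1, an adhesion molecule and a known NF-kB target, fell by 1.06 ± 0.14.

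Other called genes encode receptors and proteins of receptor signalling, which are put together here only for description, after their values were seen. Cd69, an early activation antigen that retains lymphocytes in tissue, had 7.80 and 7.37 at 24 h against 11.99 and 10.57 at 6 h. Both 24 h arrays lay far below both 6 h arrays, with 6 h replicate 1 the higher of these, and the 0 h mean was 11.41, close to 6 h. Cd69 fell 13-fold (-3.70 ± 0.43, limma adjusted p = 0.033), and 7.93-fold (-2.99 ± 0.22, adjusted p = 0.0017) against 6 h replicate 2 alone.

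P2ry14, a receptor for UDP-glucose, had 6.34 and 6.00 at 24 h against 9.05 and 8.31 at 6 h with one probe, and 5.72 and 5.70 against 8.42 and 7.80 with the other. The groups did not overlap with either probe, and the 0 h means of 7.39 and 6.73 lay between them. The differences were -2.50 ± 0.26 and -2.40 ± 0.21 (limma adjusted p = 0.033 and 0.02), and -2.13 and -2.09 against 6 h replicate 2 alone. Ramp3, a partner protein of calcitonin-family receptors, had 4.47 and 4.38 at 24 h, where it was not detected, against 7.53 and 6.65 at 6 h. It was at least 3.87-fold lower (adjusted p = 0.033), or at least 2.85-fold against 6 h replicate 2 alone, and its other probe was lower without passing the test (adjusted p = 0.051).

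Rgs1, a GTPase activator that damps signals of chemokine receptors, fell with 2 of its 3 probes. They had 8.92 and 9.28 at 24 h against 11.32 and 10.78 at 6 h, and 9.53 and 9.58 against 11.32 and 11.05. The groups were separate, and the 0 h means of 8.06 and 8.03 were lower still. The differences were -1.95 ± 0.24 and -1.63 ± 0.19 (limma adjusted p = 0.033 each), while the brightest probe, at -1.62 ± 0.25, did not pass the test (adjusted p = 0.055) and did so against 6 h replicate 2 alone (-1.30, adjusted p = 0.023).

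Gpr83, an orphan receptor found on regulatory T cells, had 9.32 and 9.01 at 24 h against 10.59 and 11.16 at 6 h, and fell by 1.71 ± 0.21 (limma adjusted p = 0.034). Tnfrsf4, the co-stimulatory receptor OX40, had 8.56 and 8.75 at 24 h against 9.76 and 9.84 at 6 h, and fell by 1.15 ± 0.14 (adjusted p = 0.034). Both stayed above their 0 h means of 7.76 and 7.74. Against 6 h replicate 2 alone the differences were -1.99 and -1.19. P2ry10, a receptor for lysophosphatidylserine, fell by 1.17 ± 0.17, and one of 3 probes for Izumo1r, folate receptor 4 of regulatory T cells, was at least 1.40-fold lower.

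Lilr4b, a leukocyte immunoglobulin-like receptor, had 5.74 and 6.11 at 24 h against 7.56 and 7.75 at 6 h, and was not detected at 0 h. It fell by 1.73 ± 0.18 (limma adjusted p = 0.033), and by 1.82 against 6 h replicate 2 alone, while the closely related Lilrb4a was at least 1.63-fold lower. Whether the probes separate the transcripts of this pair of genes was not tested. Sh2d2a, a T cell adaptor, fell by 1.01 ± 0.13, and Swap70, a signalling protein that binds actin, fell by 1.66 ± 0.16 and 1.33 ± 0.19 with its called probes.

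**Figure D2:**
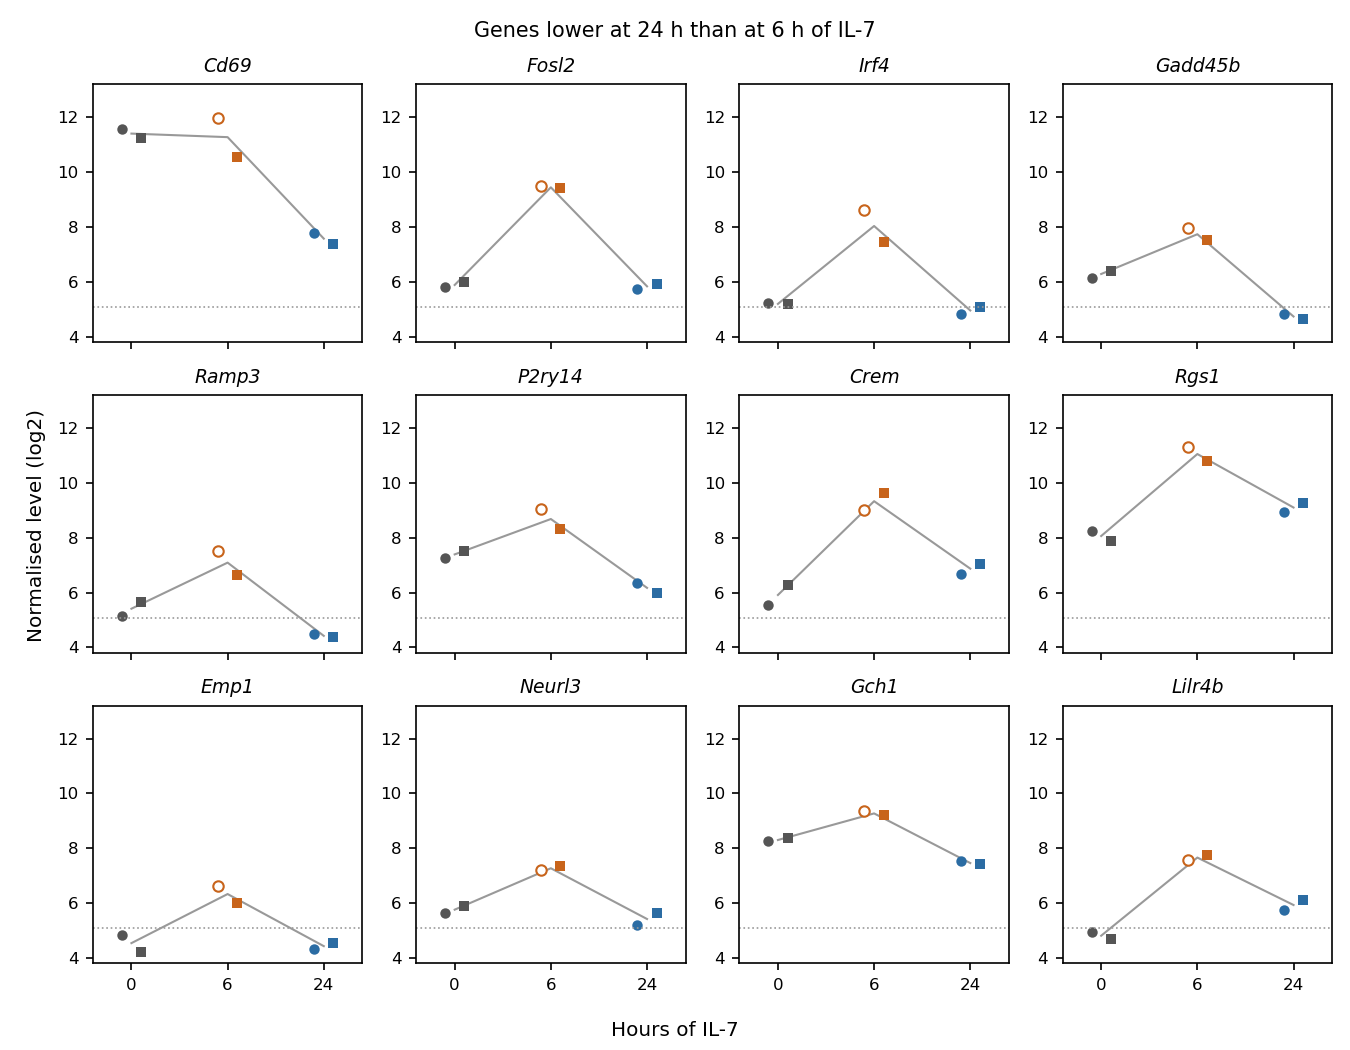
Normalised levels (log2) at 0, 6 and 24 h of IL-7 for the 12 genes of the 15 called probes that fell most. Circles are replicate 1 and squares replicate 2, and the open circle is 6 h replicate 1. Lines join the means, and the dotted line is the lowest detected level of each array, averaged over the 6 naive arrays. In each panel both 24 h arrays lie below both 6 h arrays, and Cd69 is the gene whose 0 h level is as high as its 6 h level.

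Stress and metabolic genes completed the list of the largest falls. Gadd45b, a stress-induced regulator of MAP kinase signalling, had 4.84 and 4.64 at 24 h against 7.95 and 7.54 at 6 h. Not detected at 24 h, it lay below its 0 h mean of 6.29 as well. It was at least 6.08-fold lower (limma adjusted p = 0.005), or at least 5.28-fold against 6 h replicate 2 alone. Gch1, the first enzyme of tetrahydrobiopterin synthesis, had 7.52 and 7.41 at 24 h against 9.34 and 9.20 at 6 h and fell by 1.81 ± 0.14 (adjusted p = 0.012), or by 1.73 against 6 h replicate 2 alone. Its second probe was lower as well, at -0.94, without passing the test.

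Emp1, a membrane protein of the PMP22 family, had 4.32 and 4.54 at 24 h, where it was not detected, against 6.64 and 6.02 at 6 h, and was at least 2.28-fold lower (limma adjusted p = 0.048), or at least 1.84-fold against 6 h replicate 2 alone. Neurl3, a ubiquitin ligase, fell with each of 3 probes. The probe with the largest difference had 5.19 and 5.65 at 24 h against 7.20 and 7.34 at 6 h (-1.85 ± 0.19, adjusted p = 0.033). The 6 h arrays agreed closely for all 3, and one was not detected at 24 h. With 6 h replicate 2 alone that probe was at least 2.49-fold lower, and the others stood at -1.93 and -1.46.

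The remaining called falls were smaller. Other ubiquitin ligases were Rnf125, which fell by 1.61 ± 0.19, and Rnf19b, which fell by 1.30 ± 0.15 with one probe and was at least 2.20-fold lower with another. Usp54, of the ubiquitin protease family, was at least 2.01-fold lower. Vps37b, a subunit of the ESCRT-I complex that sorts ubiquitinated receptors, was among the brighter probes, with 11.09 on each 24 h array against 12.73 and 12.56 at 6 h, and fell by 1.55 ± 0.14 (limma adjusted p = 0.02). Trib1, a pseudokinase that brings substrates to a ubiquitin ligase, was at least 1.60-fold lower. These ligases, sorting proteins and partners make a group only in this description, which was drawn up after their values were seen.

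Adk, adenosine kinase, fell by 1.63 ± 0.19 with 1 of 3 probes, and another stood at 0.02. Zfand2a, a stress-induced protein of the proteasome system, fell by 1.33 ± 0.14, Ndc80, a kinetochore subunit, also by 1.33 (SE 0.16), and Rgcc, a regulator of the cell cycle, by 1.09 ± 0.15. Dgat1, which makes triglycerides, fell by 1.12 ± 0.14, Ctnna1, alpha-catenin, by 1.16 ± 0.16, and the small GTPase Arf2 by 0.97 ± 0.13. Casp4, an inflammatory caspase, was at least 1.46-fold lower, and Sgip1, an endocytic adaptor, at least 1.60-fold with 1 of its 3 probes, another of which had the opposite sign. The transporter-family gene Pqlc3 fell by 1.07 ± 0.13, and the unnamed locus 0610040B10Rik was at least 1.5-fold lower. Against 6 h replicate 2 alone the 55 called falls lay between -3.57 and -0.89, with a median of -1.46 and adjusted p-values of 0.00026 to 0.03.

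The 6 h and 24 h levels can be set beside 0 h, with the caution that these differences share arrays. For the 55 probes that fell, the median difference was 1.29 at 6 h minus 0 h and -0.17 at 24 h minus 0 h. For the 18 that rose, the medians were -0.66 and 0.44. Fosl2 stood at -0.05 at 24 h minus 0 h (adjusted p = 0.86) after 3.56 at 6 h minus 0 h, and Cd69 at -3.82 after -0.12.

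The largest rise was that of Myl10, which encodes a myosin regulatory light chain. It had 7.54 and 7.59 at 24 h against 4.76 and 4.47 at 6 h, with deposited signals of 200.1 and 156.8 against 8.7 and 4.2. It was detected on both 24 h arrays and on none of the 6 h or 0 h arrays. Myl10 was at least 5.74-fold higher at 24 h (log2 difference 2.95 ± 0.15, limma adjusted p = 0.0021), and at least 5.57-fold higher (3.10 ± 0.16, adjusted p = 0.00026) against 6 h replicate 2 alone. Drc1, a subunit of the dynein regulatory complex of motile cilia, had 8.18 and 8.12 at 24 h against 5.79 and 5.91 at 6 h. Its 0 h mean of 5.55 was near the 6 h level. It rose 4.93-fold (2.30 ± 0.15, adjusted p = 0.0058), and 4.71-fold against 6 h replicate 2 alone.

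Several other genes that rose had been lower at 6 h than at 0 h. Nkg7, a protein of cytotoxic granules, had 10.42 and 10.13 at 24 h against 8.57 and 8.96 at 6 h, with 10.23 on average at 0 h. It rose by 1.51 ± 0.18 (limma adjusted p = 0.033), and by 1.31 against 6 h replicate 2 alone. Grm6, a metabotropic glutamate receptor known from the retina, and the chemokine receptor gene Cxcr6 were not detected at 6 h and were detected at 24 h and 0 h. Grm6 had 6.01 and 6.21 at 24 h against 4.80 and 4.43 at 6 h and was at least 2.09-fold higher (adjusted p = 0.033). Cxcr6 had 5.69 and 5.37 against 4.41 and 4.27 and was at least 1.40-fold higher (adjusted p = 0.044). The locus AI504432 had the same pattern, at least 1.31-fold higher.

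Adcy7, an adenylyl cyclase of lymphocytes, had 9.08 and 9.29 at 24 h against 8.12 and 7.93 at 6 h and rose by 1.16 ± 0.16. Tnik, a kinase of the Wnt and JNK pathways, had 9.46 and 9.43 against 8.28 and 8.47 and rose by 1.07 ± 0.14, with its other probe at 0.46 and not called. The replicates of both genes were close, and the 0 h means of 8.94 and 9.70 were near the 24 h levels. Gcat, which cleaves a breakdown product of threonine into glycine, had 7.73 and 7.34 against 6.34 and 6.11 and rose by 1.31 ± 0.19. Dapl1, a marker of naive and early memory T cells, had 6.13 and 6.01 against 5.14 and 5.12 and rose by 0.94 ± 0.13 (limma adjusted p = 0.047). Its 0 h mean of 7.51 was higher than either time.

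Other genes rose above both earlier times. Setbp1, a chromatin-associated protein, had 6.89 and 6.81 at 24 h against 5.67 and 5.89 at 6 h, was not detected at 0 h, and rose by 1.07 ± 0.14. Dbp, a transcription factor of circadian output, had 10.61 and 10.38 against 9.28 and 9.43, with a 0 h mean of 9.23, and rose by 1.14 ± 0.16. Stx1a, a SNARE protein of vesicle release, had 7.89 and 7.82 against 6.47 and 6.73 and rose by 1.26 ± 0.15. The locus A630034I12Rik rose by 1.07 ± 0.13. Over the 16 genes that rose, limma adjusted p-values lay between 0.0021 and 0.048, and the values against 6 h replicate 2 alone lay between 0.88 and 3.10 for all 18 probes that rose, with a median of 1.09.

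**Figure D3:**
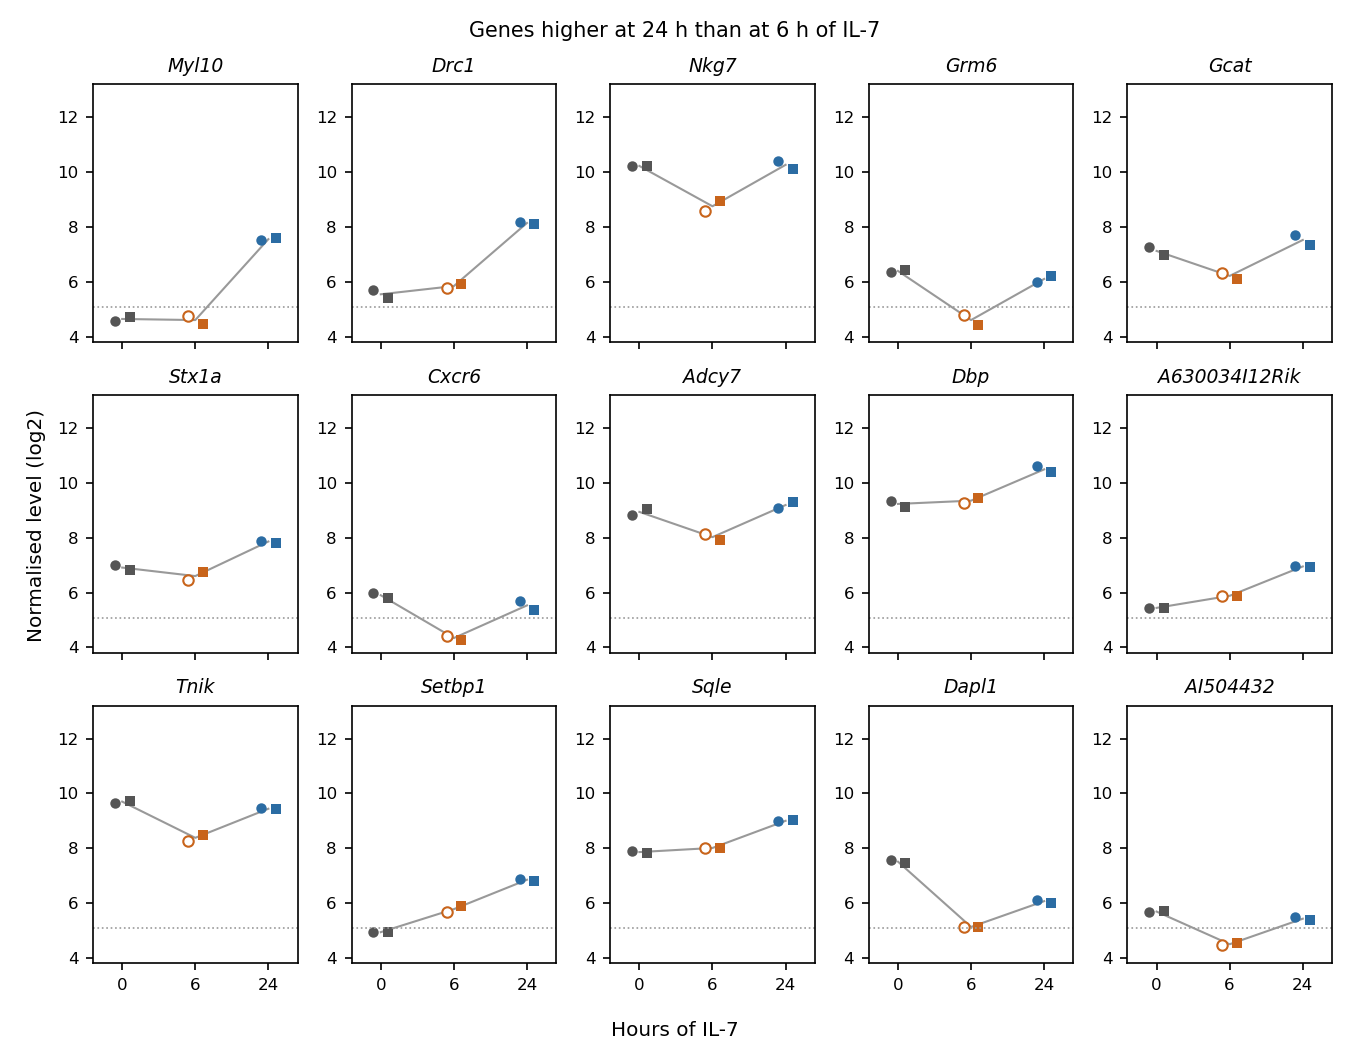
Normalised levels (log2) at 0, 6 and 24 h of IL-7 for the genes of the 15 called probes that rose most. Circles are replicate 1 and squares replicate 2, and the open circle is 6 h replicate 1. Lines join the means, and the dotted line is the lowest detected level of each array, averaged over the 6 naive arrays. Myl10 and Drc1 are high at 24 h alone, while Nkg7, Grm6, Cxcr6 and Tnik are low at 6 h.

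Of the 10 named probes per direction with the widest gap between the groups, 4 did not pass the test, all of them higher at 24 h. Map2k6, a kinase upstream of p38, had 7.10 and 7.22 at 24 h against 5.87 and 5.65 at 6 h (difference 1.40 ± 0.22, limma adjusted p = 0.055). Olfml3, detected on 1 of the 6 h arrays, stood at 1.56 ± 0.23 (adjusted p = 0.052). Trnp1, not detected at 6 h, was at least 2.2-fold higher (adjusted p = 0.051), and Rbm3, a cold-inducible RNA-binding protein, stood at 1.58 ± 0.31 (adjusted p = 0.088). Against 6 h replicate 2 alone Map2k6 and Olfml3 (1.51 and 1.22, adjusted p = 0.022 and 0.015) and Trnp1 (at least 2.14-fold, adjusted p = 0.028) were called and Rbm3 was not (adjusted p = 0.057).

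Sterol synthesis genes were higher at 24 h. The test called 2 of 18 measured genes, both as rises, against 0.118% of all probes that rose and 0.36% that fell. The other 16 missed the threshold. At 24 h 17 of the 18 were higher, or 15 against 6 h replicate 2 alone, beside 55% and 49.8% of all genes. Sqle, squalene epoxidase, had 8.98 and 9.02 at 24 h against 8.01 and 8.02 at 6 h and rose by 0.98 ± 0.13 (limma adjusted p = 0.037). Idi1, which isomerises the isoprenoid unit early in the pathway, had 6.34 and 6.29 against 5.40 and 5.42 and rose by 0.91 ± 0.13 (adjusted p = 0.045). In both genes the replicates of each time nearly coincided, and the values against 6 h replicate 2 alone were 0.98 and 0.90.

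Lss, lanosterol synthase, had 6.76 and 6.72 at 24 h against 6.02 and 5.71 at 6 h (0.88 ± 0.16, limma adjusted p = 0.075), and Cyp51, the lanosterol demethylase, had 7.41 and 7.50 against 7.02 and 6.62 (0.64 ± 0.17, adjusted p = 0.15). These were called against 6 h replicate 2 alone, at 1.03 and 0.83 (adjusted p = 0.021 and 0.038), which makes 4 of 18 that rose there against 1.25% of all probes. The list median was 0.39, and 0.44 against 6 h replicate 2 alone, beside medians of 0.03 and 0 over all genes. Srebf2, the transcription factor of the pathway, stood at 0.43 ± 0.14 (adjusted p = 0.19), and the sterol sensors Insig1 and Insig2 at 0.44 and 0.05. Lss, Cyp51, Srebf2 and the Insig genes were picked after their values were seen.

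Promoter sequences of this list are shown because 17 of its 18 measured members were higher at 24 h, or 15 against 6 h replicate 2 alone. RefSeq promoters (GRCm38.p6, 250 bases before to 50 after the start) were found for 15 of the 18 genes, and Sqle was not among them. The letters CCAAT, the binding motif of NF-Y, were searched on both strands, where the reverse strand reads ATTGG. They occurred in 14 of the 15 genes (93.3%), against 41.1% of 27025 genes with a promoter in the table. Counted by promoter, since a gene can have several, they were in 14 of 21 (66.7%), against 37.4% of all promoters, and among the genes of the largest rises they were in 6 of 10 (60%). The letters TCACNCCAC of a sterol response element, again on both strands, occurred in 0 of the 15, against 1.44% of all genes, which says only that these letters are not in these windows. The promoters of the called gene Idi1 (chr13:8885356-8885655, plus strand) and of Lss (chr10:76531355-76531654, plus strand) and Cyp51 (chr5:4104648-4104947, minus strand) follow 5′ to 3′, with the motif in capitals. It starts at -45 and -14 from the transcription start in Idi1, at -62 in Lss and at -29 in Cyp51.
Idi1: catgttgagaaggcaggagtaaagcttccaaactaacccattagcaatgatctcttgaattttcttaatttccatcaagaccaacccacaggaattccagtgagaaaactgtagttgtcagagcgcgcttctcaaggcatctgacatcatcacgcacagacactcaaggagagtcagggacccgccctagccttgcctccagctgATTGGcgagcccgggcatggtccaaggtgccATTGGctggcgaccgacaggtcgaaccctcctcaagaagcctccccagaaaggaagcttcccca
Lss: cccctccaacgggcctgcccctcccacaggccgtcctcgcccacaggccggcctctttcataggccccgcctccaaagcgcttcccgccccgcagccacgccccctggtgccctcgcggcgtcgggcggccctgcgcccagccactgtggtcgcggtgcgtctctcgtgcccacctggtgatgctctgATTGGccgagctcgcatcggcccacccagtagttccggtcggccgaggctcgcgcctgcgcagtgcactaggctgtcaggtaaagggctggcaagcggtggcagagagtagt
Cyp51: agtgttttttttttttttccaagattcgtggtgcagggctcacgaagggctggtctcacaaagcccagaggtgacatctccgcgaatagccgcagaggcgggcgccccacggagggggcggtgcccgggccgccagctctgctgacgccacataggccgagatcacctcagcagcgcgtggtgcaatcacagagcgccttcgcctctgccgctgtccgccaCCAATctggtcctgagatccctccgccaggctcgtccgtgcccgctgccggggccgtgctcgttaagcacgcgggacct

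Among the 12 genes of the largest falls, 9 had a promoter in the table, and 2 of them, Emp1 and P2ry14, held the AP-1 letters TGANTCA (22.2%), against 8.97% of all genes; among the genes of the largest rises these letters were in 2 of the 10 with a promoter in the table, Adcy7 and Drc1 (20%). The letters TGACGTCA of a cyclic AMP response element occurred in 0 of the 9, against 2.03% of all genes. The STAT5 letters TTCNNNGAA were in 3 of the 10, Adcy7, Dbp and Nkg7 (30%), and in 2 of the 9 genes that fell, Emp1 and Lilr4b (22.2%), against 9.55% of all genes. A match is a description of the letters and not a binding site.

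Early activation genes as a list were lower at 24 h. The called falls were 4 of its 21 measured genes, Cd69, Irf4, Gadd45b and Tnfrsf4, described above, against 0.36% of all probes; 0 rose and 17 missed the threshold. The median was -1.29, or -0.84 against 6 h replicate 2 alone, beside 0.03 and 0 over all genes, and 13 of the 21 fell in the comparison with that array alone, against 1.49% of all probes. On 6 h replicate 1 the median of the list was 1.07 above replicate 2, against -0.09 over all probes, and the part of the other cell types on that array in this difference was not tested.

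The genes called only against 6 h replicate 2 show how far the arrays differed; they were picked after their values were seen. Egr1, an immediate early zinc finger factor, had 7.11 and 7.08 at 24 h against 11.71 and 7.90 at 6 h (-2.71 ± 1.03, limma adjusted p = 0.25, and -0.81, adjusted p = 0.038, against replicate 2 alone). Egr2 had 4.90 and 4.93 against 8.01 and 6.11, and was at least 1.97-fold lower (adjusted p = 0.012) against replicate 2 alone. In both genes the 24 h arrays were below both 6 h arrays, and replicate 1 was by far the highest of these arrays. The 0 h means of Egr1 and Egr2 were 10.64 and 6.88, above 6 h replicate 2. Tnfaip3, an inhibitor of NF-kB signalling, had 7.26 and 7.0 against 11.35 and 8.76 and fell by 1.63 (adjusted p = 0.035) against replicate 2 alone. Bhlhe40, a transcription factor of activated T cells, had 5.75 and 5.32 against 9.02 and 7.22 and fell by 1.68 there. The 0 h mean of Tnfaip3, 9.96, was above 6 h replicate 2, and that of Bhlhe40, 4.99, was below it.

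Ctla4, the inhibitory receptor, had 8.41 and 8.28 at 24 h against 10.30 and 9.19 at 6 h, and fell by 0.84 (limma adjusted p = 0.039) against replicate 2 alone. Tnfrsf18, the receptor GITR, had 10.91 and 11.04 against 11.27 and 12.18, and fell by 1.20 (adjusted p = 0.021) there. For Tnfrsf18 replicate 2 was the higher 6 h array. Myc had 7.19 on each 24 h array against 6.33 and 6.54 at 6 h (0.76 ± 0.16, adjusted p = 0.11), and Il2ra, the IL-2 receptor alpha chain, 6.98 and 7.05 against 6.27 and 6.57 (0.59 ± 0.15, adjusted p = 0.14). Neither passed the test against either set of 6 h arrays.

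Of 20 measured AP-1 and cyclic AMP response genes, 0 rose and 2 fell, Fosl2 and Crem, against 0.36% of all probes, and 18 did not pass the test. The median was -1.24, and -0.56 against 6 h replicate 2 alone, where 6 fell against 1.49% of all probes. Junb had 8.15 and 8.17 at 24 h against 11.98 and 9.07 at 6 h, and fell by 0.91 (limma adjusted p = 0.028) against replicate 2 alone. Fos had 8.43 and 8.28 against 11.40 and 8.95, and did not pass the test there (-0.60, adjusted p = 0.25), nor did Jun (-0.56, adjusted p = 0.16). The median of this list was 0.78 higher on 6 h replicate 1 than on replicate 2. At 6 h minus 0 h the list median was -0.06, and the 0 h mean of Junb, 11.28, was above 6 h replicate 2. Creb1 stood at 0.39 ± 0.16 and Creb3l2 at -0.06 ± 0.14, with no call.

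Of 15 measured NF-kB subunits and inhibitors, 3 fell, Relb, Rel and Bcl3, against 0.36% of all probes, and 0 rose, with a median of -0.92, or -0.72 against 6 h replicate 2 alone. There 6 fell, against 1.49% of all probes, the added ones being Nfkb2 (-1.06, limma adjusted p = 0.016), Nfkbib (-0.79, adjusted p = 0.045) and Tnfaip3. In this list 14 of 15 members were lower against either set, whereas 55% of all genes were higher against both 6 h arrays and 49.8% against replicate 2 alone, and 6 h replicate 1 was 0.19 above replicate 2 in the median. Rela, the most widely expressed subunit, stood at -0.33 ± 0.16 (adjusted p = 0.34).

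**Figure D4:**
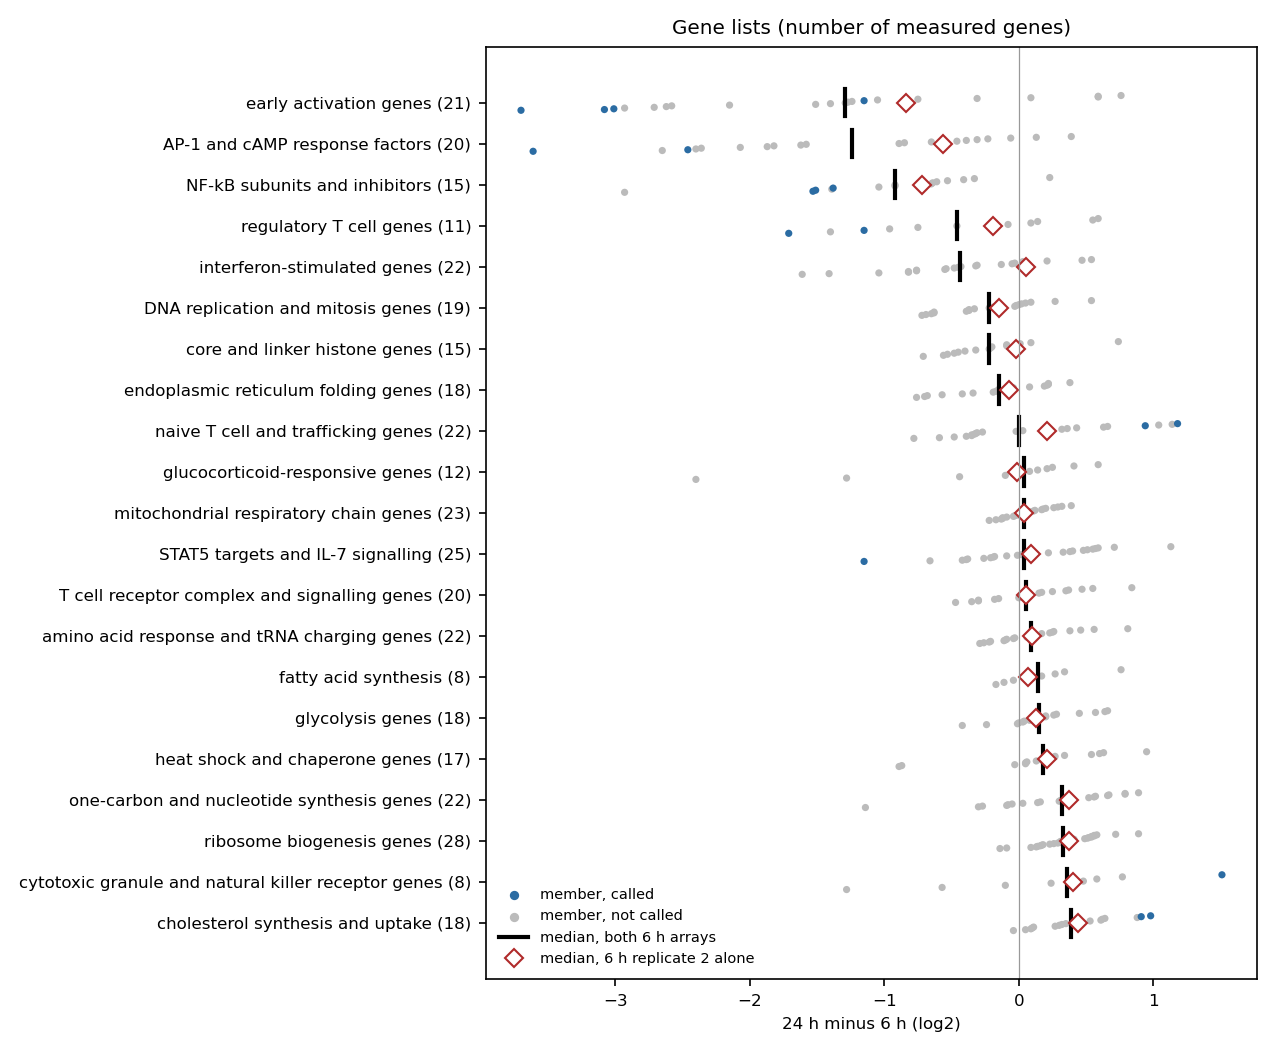
Difference at 24 h minus 6 h (log2) for each measured gene (dots, called genes in blue) of 21 gene lists, with list medians against both 6 h arrays (bars) and against 6 h replicate 2 alone (diamonds). Early activation, AP-1 and NF-kB genes have the lowest medians, at -1.29, -1.24 and -0.92, and move towards 0 without 6 h replicate 1, while cholesterol synthesis has the highest, at 0.39.

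The list of IL-7 pathway genes had 1 call in this interval. Of 25 measured STAT5 targets and IL-7 signalling genes, 0 rose and 1 fell, Tnfrsf4, against 0.118% and 0.36% of all probes. The list median was 0.04, or 0.09 against 6 h replicate 2 alone. Bcl2 had 11.42 and 11.62 at 24 h against 10.58 and 11.43 at 6 h, with 8.29 on average at 0 h (0.51 ± 0.28, limma adjusted p = 0.4). Cish had 10.04 and 10.43 against 10.31 and 10.51 (-0.18 ± 0.17, adjusted p = 0.63). For Cish the times overlapped, and for Bcl2 the lower 24 h array was just below the higher 6 h array. Socs2, a feedback inhibitor, had 8.28 and 7.89 against 6.85 and 7.06, a difference of 1.13 ± 0.17 that missed the threshold (adjusted p = 0.054) and was called against 6 h replicate 2 alone (1.03, adjusted p = 0.036). Socs1 stood at 0.48 ± 0.18 and Il7r at 0.22 ± 0.13 (adjusted p = 0.25 and 0.43).

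Growth-related lists leaned upward, without single calls in the fit with both 6 h arrays. Of 28 measured ribosome biogenesis genes 26 were higher at 24 h and 0 were called, against 0.478% of all probes. The median was 0.33, or 0.37 against 6 h replicate 2 alone, where Rrp12 stood at 1.37 and Grwd1 at 0.79. Over all genes 55% were higher, or 49.8% against replicate 2 alone. Gnl3, a nucleolar GTPase, had 7.18 and 6.93 at 24 h against 6.26 and 6.41 at 6 h (0.72 ± 0.16, limma adjusted p = 0.11). Rrp12, a factor of ribosome export, had 8.76 and 8.70 against 8.33 and 7.36, so replicate 1 at 6 h was much nearer to the 24 h level than replicate 2.

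Of 22 measured one-carbon and nucleotide synthesis genes 16 were higher and 0 were called, against 0.478% of all probes. The median was 0.32, or 0.37 against 6 h replicate 2 alone. Cad, the first enzyme of pyrimidine synthesis, had 6.91 and 7.14 at 24 h against 6.11 and 6.14 at 6 h (0.89 ± 0.14, limma adjusted p = 0.056). Srm, spermidine synthase, stood at 0.79 ± 0.14 (adjusted p = 0.071) and Gart, of purine synthesis, at 0.79 ± 0.25 (adjusted p = 0.18). Odc1, the rate-limiting enzyme of polyamine synthesis, had 9.04 and 9.08 against 10.48 and 9.93 (-1.14 ± 0.20, adjusted p = 0.073). Against 6 h replicate 2 alone Cad stood at 0.88, Srm at 0.89 and Gart at 1.16, and Odc1 was lower by 0.87.

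Of 11 measured regulatory T cell genes 2 fell, Gpr83 and Tnfrsf4, against 0.36% of all probes, and 0 rose, with a median of -0.46, or -0.19 against 6 h replicate 2 alone. Foxp3, the lineage factor, had 9.24 and 9.38 at 24 h against 9.25 and 9.18 at 6 h (0.09 ± 0.14, limma adjusted p = 0.77), the groups overlapping. Of 22 measured naive T cell and trafficking genes 2 rose, Dapl1 and Cxcr6, against 0.118% of all probes, with a median of 0, or 0.21 against 6 h replicate 2 alone. The integrin gene Itgae and Igfbp4 were called against replicate 2 alone, at 1.57 and 1.39 (adjusted p = 0.033 and 0.018). Of 8 measured cytotoxic granule and natural killer receptor genes, 1 rose, Nkg7, against 0.118% of all probes, while Prf1, perforin, stood at 0.48 ± 0.17 (adjusted p = 0.24) and Klrd1 at -0.57 ± 0.17 (adjusted p = 0.18). With 6 h replicate 2 alone 2 of the 8 rose, Nkg7 and Cst7, and 2 fell, Klrd1 (-0.79, adjusted p = 0.042) and Fasl (-0.98, adjusted p = 0.04), against 1.25% and 1.49% of all probes. The summed signals of 10 natural killer cell markers were 2857.6 and 1943.4 at 24 h, 1789.5 and 1917.3 at 6 h, and 4172.3 and 2639.4 at 0 h. Most of each sum was Prf1, with 2468.2 and 1675.6, 1211.1 and 1348.9, and 2942.6 and 1750.4 in the same order. Of the 10 markers, 2 were detected on each 24 h array, 3 on each 6 h array and 6 on each 0 h array. The part of natural killer cells or of CD8 T cells in the rise of Nkg7 was not tested.

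Interferon-stimulated genes depended on the 6 h array. Of 22 measured, 0 were called, against 0.478% of all probes. The median was -0.44, but 0.05 against 6 h replicate 2 alone. Ifit3 had 6.25 and 6.24 at 24 h against 8.94 and 6.76 at 6 h (-1.61 ± 0.60, limma adjusted p = 0.24), and Oasl2 had 5.87 and 5.84 against 8.03 and 6.51 (-1.41 ± 0.43, adjusted p = 0.18). Isg15 had 6.09 and 6.16 against 7.96 and 5.93 (-0.82 ± 0.56, adjusted p = 0.49), so that it stood at 0.19 against replicate 2 alone. In all 3 genes 6 h replicate 1 was the highest of the 4 arrays. Their 0 h means were higher still, at 10.21, 9.48 and 9.5, and the list median at 6 h minus 0 h was -1.06. Bst2, a tethering factor of enveloped viruses, had 7.24 and 7.23 at 24 h against 7.71 and 5.83 at 6 h (0.47 ± 0.52, adjusted p = 0.68). It was called against replicate 2 alone (1.41, adjusted p = 0.0072), while 6 h replicate 1 lay above both 24 h arrays.

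The other lists had 0 called members each with both 6 h arrays, and over all probes 0.478% were called. Their medians are given against both 6 h arrays and then against 6 h replicate 2 alone. DNA replication and mitosis genes stood at -0.22 and -0.15, histones at -0.22 and -0.02, and endoplasmic reticulum folding genes at -0.15 and -0.07. Glucocorticoid-responsive genes stood at 0.04 and -0.01, mitochondrial respiratory chain genes at 0.04 and 0.04, and the T cell receptor complex at 0.05 and 0.05. The amino acid response stood at 0.09 and 0.1, and fatty acid synthesis at 0.14 and 0.07. Glycolysis stood at 0.15 and 0.13, and heat shock genes at 0.18 and 0.21. Hsph1, a heat shock protein of the HSP110 family, had 9.22 and 8.93 at 24 h against 8.87 and 7.38 at 6 h (0.95 ± 0.43, limma adjusted p = 0.32) and rose by 1.69 (adjusted p = 0.0072) against replicate 2 alone. Trat1, an adaptor of the T cell receptor, had 11.25 and 11.09 against 10.47 and 10.18 (0.84 ± 0.17, adjusted p = 0.091) and rose by 0.99 (adjusted p = 0.031) there. Cd4 itself, the co-receptor of these cells, had 7.35 and 7.41 against 7.68 and 7.69 (-0.30 ± 0.13, adjusted p = 0.28). Over the 21 lists, which share some genes, 374 distinct genes were measured, of which 5 rose and 10 fell. Over all 8078 genes, each again represented by its brightest tested probe, 15 rose and 37 fell. The lists were chosen with earlier results of these data known.

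**Figure D5:**
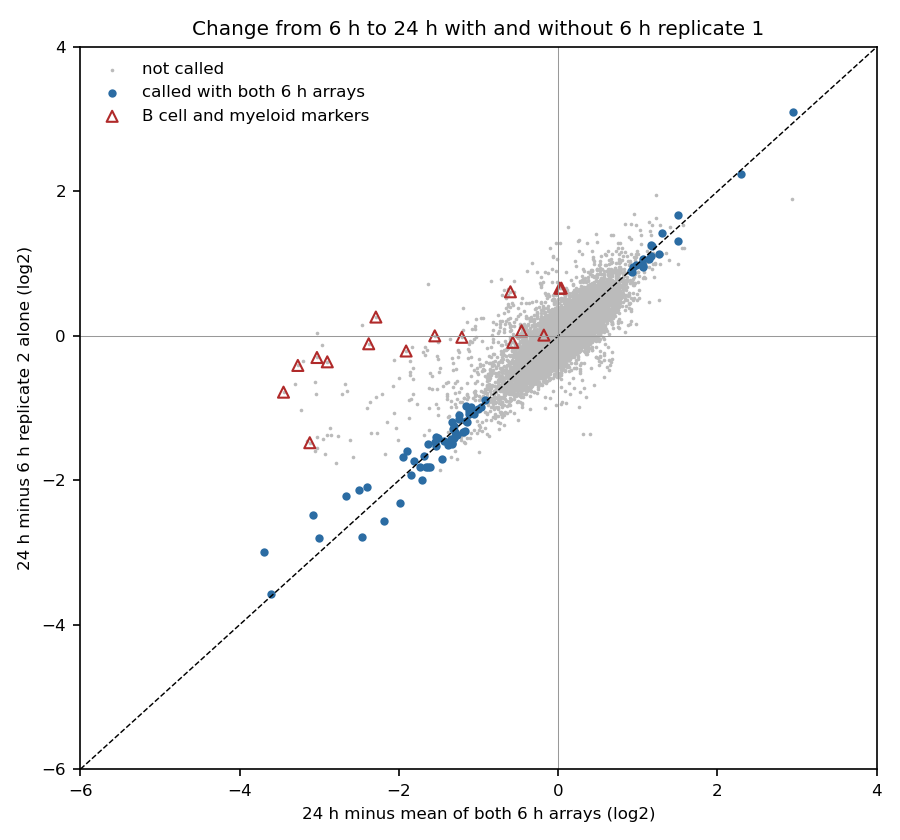
Difference at 24 h minus the mean of both 6 h arrays (log2, horizontal axis) against that at 24 h minus 6 h replicate 2 alone (log2, vertical axis) for the 15259 probes; blue dots are the 73 called probes, red triangles the measured B cell and myeloid markers, and the dashed line is equality. The called probes lie near the line, at 0.8 to 1.17 times, while most of the markers with strongly negative differences lie near 0 on the vertical axis, with Cd83 apart at -1.48.

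The measured markers of other cells show which part of the interval belongs to one array. The 8 measured B cell markers had a median of -2.97 against both 6 h arrays and -0.33 against replicate 2 alone, and the 8 myeloid and dendritic cell markers -0.59 and 0.17. Cd74, the invariant chain of antigen-presenting cells, had 5.48 and 7.19 at 24 h against 12.45 and 7.12 at 6 h (-3.45 ± 1.52, limma adjusted p = 0.31), and Lyz2, a lysozyme of macrophages, had 4.79 and 5.90 against 10.18 and 5.08. The 24 h arrays also differed from each other for both genes, and no marker of either list was called with both 6 h arrays. Cd83, a marker of mature dendritic and activated B cells, was not detected at 24 h and was called against replicate 2 alone (adjusted p = 0.006).

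The Th9 arrays give a second reading of the called probes, in other cells and after another exposure. Of the 73, 54 were detected there and 0 were called for IL-7-treated against untreated Th9 cells by limma, against 0.337% of all Th9 probes, and 16 had an unadjusted p under 0.05, against 9.43% of all Th9 probes. The smallest adjusted p was 0.084, for Rgs1, which had 9.93, 9.57 and 9.43 after IL-7 against 8.79, 8.51 and 8.83 without it (0.93 ± 0.18). Lilr4b had 7.49, 8.17 and 6.41 after IL-7 against 6.67, 5.79 and 5.30 without it (1.43 ± 0.44, adjusted p = 0.31). Of the probes that fell in naive cells 29 of 43 were higher after IL-7, with a median of 0.24, and of those that rose 3 of 11 were higher, with a median of -0.16, against 48.4% and -0.01 over all Th9 probes. No level is compared between the experiments, which were normalised separately.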

How the data were processed

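Per the labels, RNA of 12 samples was hybridised to Illumina mouse BeadChips, 1 sample per array. The authors deposited, per the file headers and the submitters' processing notes (GenomeStudio, no version given), a background-subtracted, not normalised intensity and a detection p-value for 45281 probes. A second deposited intensity table is scaled per array. Of its 895 bright lines 655 (73.2%) matched a probe of the first table within 0.02 on the log2 scale, 0 of them under the same name, so only its factor per array served, as an alternative.

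The 6 naive arrays were processed in R 4.3.3 with limma 3.58.1 and its function neqc (normexp with negative controls inferred from detection p-values, offset 16, quantile normalisation, log2), and the 6 Th9 arrays apart from them. Linear models with moderated 2-sided tests used the 3 times (3 residual degrees of freedom), or 5 arrays without 6 h replicate 1 (2 residual degrees of freedom), adjusted by Benjamini and Hochberg over 15259 probes (13638 in Th9 cells, detected on at least 3 arrays). The tests were checked on simulated data. The number of arrays limits the precision.

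Symbols came from the platform annotation: 34885 probes had 1 symbol, 18 several and 10378 none, and RefSeq changed 0 of them. Genes in lists are represented by their brightest tested probe, whereas the shares of calls set beside list counts are over all probes. Listed names absent from the array were looked up as synonyms. This put Eno1b and Pigq, which is not a glycolysis gene, in the glycolysis list, and Amd2 in the one-carbon and nucleotide synthesis list. Named are the 15 called probes that moved most in each direction, the 10 per direction with the widest gap, called list members or otherwise the 4 with the largest difference, and 7 genes of IL-7 signalling and identity; other names were chosen after their values were seen. The comparison and the 21 pathway and 11 marker lists were chosen with earlier results of these data known. Alternatives changed samples, normalisation, filters, weights and blocks.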

Additional observations from a re-analysis of the deposited data

How the results depend on the processing

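The 73 calls kept their sign in each of 19 alternative settings in which they were tested, but their number depended on the estimate of spread. It was 4 with the 4 arrays at 24 h and 6 h alone, 13 with a replicate block, 41 with array quality weights, 20 without further background correction, 2 without a filter on dim probes and 138 with a trend of the prior variance on level. Leaving out 1 array gave 1 to 1766 calls (1 without either 24 h array, 4 without either 0 h array, 417 without 6 h replicate 1 and 1766 without 6 h replicate 2), and normalising without 6 h replicate 1 gave 417. It was 91 with median scaling, 100 with offset 50, 56 for probes detected on all 4 arrays, 59 with 1 feature per gene and 66 with the deposited factors. Fosl2 was called in every one of these settings. The replicate numbers did not pair the samples (correlations of deviations -0.23, 0.13 and 0.07 between times); a block with the 6 h numbers crossed, chosen after seeing the data, gave 7 calls. Over the arrays left out Cish ranged from -0.38 to 0.02, Bst2 from -0.47 to 1.41, Lyz2 from -4.84 to 0.26, Isg15 from -1.83 to 0.19, Creb3l2 from -0.17 to 0.04 and Insig2 from -0.2 to 0.3. Bst2 was negative without 6 h replicate 2 and Cish positive without 24 h replicate 1; the other 4 reversed without 6 h replicate 1, with Isg15 at 0.2 when normalised without it. The median of the interferon-stimulated genes changed sign, to 0.05, without 6 h replicate 1. Of the 73 probes 0 were called in Th9 cells whichever Th9 array was left out and with the block. The cause of these changes was not tested, except that fewer arrays leave fewer degrees of freedom.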

Other observations

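Further genes were called against 6 h replicate 2 alone and had both 24 h arrays on one side of both 6 h arrays; those below lie outside the lists and were chosen after their values were seen. Gpr34, a receptor for lysophosphatidylserine, had 8.97 and 8.64 at 24 h against 7.24 and 7.66 at 6 h with one probe (1.35, limma adjusted p = 0.068) and rose by 1.15 (adjusted p = 0.043) against replicate 2 alone. F2rl3, a thrombin receptor, had 6.74 and 6.36 against 5.31 and 5.40 and rose by 1.15 (adjusted p = 0.036) there. The kinase gene Dyrk4 had 6.08 and 6.17 against 4.56 and 5.13, and St3gal1, a sialyltransferase that modifies T cell surface glycans, had 7.40 and 7.09 against 6.23 and 5.70. In these 4 genes replicates of one time lay closer together than the times did. Falls called in the same way included the phosphatase gene Dusp10, with 6.11 and 6.08 at 24 h against 8.72 and 7.24 at 6 h (its other probe was not called, adjusted p = 0.065), and Plaur, the urokinase receptor, which was not called with both 6 h arrays (adjusted p = 0.15).

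Hba-a1, an alpha chain of haemoglobin, had the lowest levels of the naive arrays at 24 h. It had 5.71 and 6.25 at 24 h against 10.83 and 7.44 at 6 h and 8.61 and 8.57 at 0 h. It was not called with both 6 h arrays (-3.16, limma adjusted p = 0.17) and was with replicate 2 alone (-1.46, adjusted p = 0.018). The summed signals of 8 erythroid markers were 84.5 and 67.9 at 24 h, 1497.4 and 191.5 at 6 h, and 570.7 and 399.7 at 0 h. Most of each sum was Hba-a1 itself, with 44.6 and 52.6, 1404.6 and 155.5, and 473.9 and 349.1 in the same order. Hbb-b2, Alas2, Car1 and Epb42 were detected on none of the naive arrays. The part of red cell RNA in other differences was not tested.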
